A study of Mus musculus with 18 samples.

Results

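Wild-type (WT) mouse embryonic fibroblasts (MEFs) of the S6K1 series carried either an empty retroviral vector (EV) or a vector for constitutively active HRAS (RAS), and the RAS cells were compared with the EV cells. The comparison took the 3 WT RAS libraries and the 3 WT EV libraries of that series, 6 of the 18 libraries in all, and was described across every gene with enough counts. MEFs are primary cells grown from minced mid-gestation embryos, here with head and viscera removed, of C57BL/6 mice bred as S6K1 heterozygotes. The other libraries hold S6K1 knockout cells with RAS and an S6K1/S6K2 series of WT EV, WT RAS and double knockout RAS cells. Equal replicate numbers were taken as 1 embryo line that received both vectors, so line 1 with EV was paired with line 1 with RAS. The study describes EV as the parental vector of RAS and selected with puromycin, but its methods list pBABEpuro for EV and MSCV-neo for RAS, so whether the groups also differ in backbone was not settled here. No time after infection is attached to the libraries in the labels.

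HRAS is a small GTPase that passes signals from growth factor receptors to the RAF, MEK and ERK kinases and to PI3 kinase. Locked in its active form it drives ERK constantly, which raises transcription factors of the AP-1 and ETS families together with the phosphatases and Sprouty proteins that feed back on the pathway. In primary fibroblasts oncogenic RAS is known to cause senescence, a stable arrest held by p53, by the CDK inhibitor p16 and by p19Arf, with secretion of cytokines, chemokines and matrix proteases, the senescence-associated secretory phenotype. Fibroblasts otherwise make the collagen-rich matrix of connective tissue.

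Total counts were 10990018 to 14402442 in the EV libraries and 11366404 to 12413433 in the RAS libraries. Of the 12 fibroblast markers checked, all passed the filter on low counts, and their summed level was 44701, 55221 and 53316 CPM (counts scaled to library size) with EV and 24670, 26909 and 36571 CPM with RAS in lines 1, 2 and 3. This order of the lines is kept for all values below, and CPM were scaled by TMM over the 6 libraries and not divided by gene length, so levels compare libraries and not genes. Col1a1, Col1a2, Col3a1 and Fn1 made up most of the fibroblast sums. Of the 12 markers, 6 were lower with RAS at an adjusted p under 0.05, these 3 collagen genes among them. Vim and Dcn were higher, and Fn1, Pdgfra, Thy1 and S100a4 did not pass. The 20 macrophage markers were present in all 6 libraries, with sums of 3590, 2750 and 729 CPM with EV and 4132, 3694 and 806 CPM with RAS, so line 3 was low under both vectors. In bulk RNA, fewer cells of a type and less RNA per cell cannot be told apart. The myogenic factors Myod1 and Myf5 were at 0 in all 6 libraries, and 5 of 11 epithelial markers were at or under 3 counts in every library.

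Hras itself was at 73.2, 51.2 and 62.5 CPM with EV and 119.8, 116 and 121 CPM with RAS, and the groups did not overlap. It rose by a log2 fold change of 0.94 ± 0.11, adjusted p = 0.0011 (here and below ± is the standard error of the paired fit over 3 lines, with edgeR's quasi-likelihood test adjusted over all genes tested). A table of gene counts does not separate vector reads from those of the cell's own gene.

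RAS changed 4411 of the 13687 genes tested, 32.2%, at an adjusted p under 0.05. Of these, 2236 (16.3%) were higher and 2175 (15.9%) lower with RAS. The EV and RAS libraries did not overlap for 4229 genes (30.9%), and 63.3% of all genes tested moved in the same direction in each of the 3 lines. Of the 4411 called genes 4394 did so, which the paired test over these lines selects for. Fold changes were at least 2-fold for 814 higher and 719 lower genes. At the other end, 962 higher and 851 lower genes changed by less than 1.5-fold. Of the genes called higher, 70 had every EV library at or under a floor of 3 counts, and 7 genes called lower had every RAS library there. For such genes the fold is given as a lower bound against that floor. With these genes left out, 43 higher and 12 lower genes changed by at least 16-fold, and with them entered at their bound 67 and 12 did. Of all genes tested, 482 passed the filter on low counts only through their RAS libraries, which selects for a rise. Without the line as a block 1486 genes were called, 797 higher and 689 lower, all of them among the 4411. Without line 1 the paired fit called 2034 genes and without line 2 it called 2737.

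**Figure D1:**
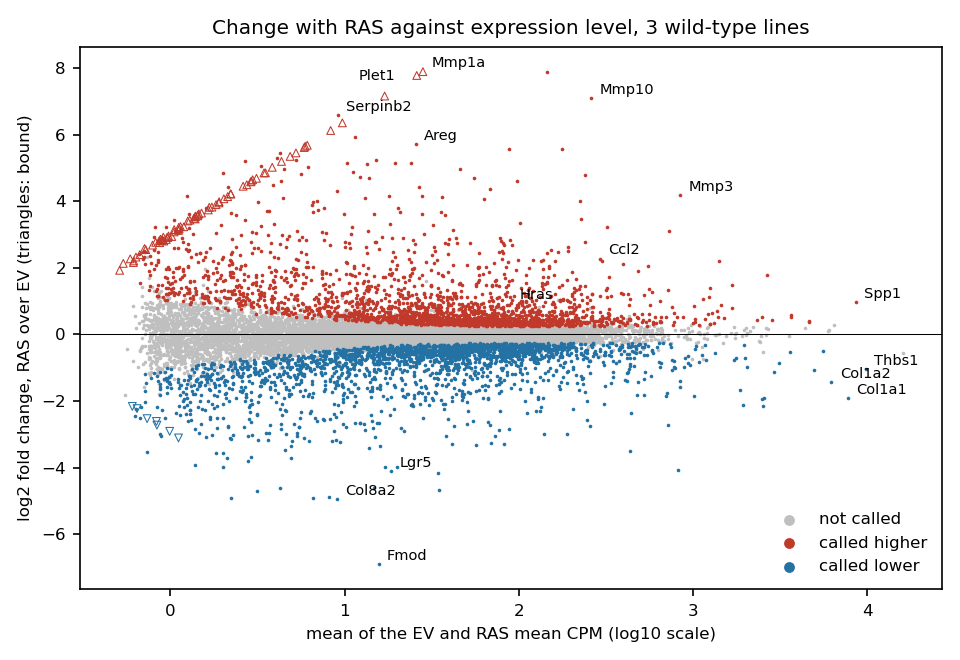
Log2 fold change of RAS over EV (vertical axis) against the mean of both group mean CPM (horizontal axis, log10 scale) for the 13687 genes tested. Red points are the 2236 genes called higher, blue points the 2175 called lower and grey points the genes not called. Open triangles mark genes with one group at or under 3 counts, drawn at their bound.

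The called genes held a large part of the RNA. Genes called higher took 18.0%, 15.0% and 15.2% of all counts with EV and 29.0%, 27.6% and 24.7% with RAS. Genes called lower took 26.5%, 29.3% and 29.2% with EV and 14.7%, 16.1% and 17.5% with RAS. The direction of these shares follows from the choice of the genes. Across genes, the changes of the lines correlated at a Pearson r of 0.887 (lines 1 and 2), 0.809 (lines 1 and 3) and 0.792 (lines 2 and 3), where genes are not independent replicates. Line 2 had the largest change of the 3 lines for 45.2% of the called genes.

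The largest gains in mean CPM, which longer transcripts favour, were those of Spp1, Ctsl, Crabp1, S100a6 and Mmp3. Spp1, the secreted matrix phosphoprotein osteopontin, was at 5873, 3788 and 8099 CPM with EV and 9691, 9397 and 14725 CPM with RAS and rose by 0.96 ± 0.14, adjusted p = 0.0028. Ctsl, a lysosomal protease that can be secreted, was at 1339, 973 and 1229 CPM with EV and 4495, 4703 and 3159 CPM with RAS and rose by 1.79 ± 0.17, adjusted p = 5.78e-04. Every line rose for both genes, and the EV and RAS libraries did not overlap. Crabp1, which binds retinoic acid, was at 724, 461 and 271 CPM with EV and 2985, 3079 and 971 CPM with RAS. S100a6, a calcium-binding protein, was at 1222, 719 and 680.4 CPM with EV and 3434, 2237 and 1707 CPM with RAS. Their log2 fold changes were 2.21 and 1.48, and in each case line 3 had the lowest RAS value.

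Genes of RAS signalling other than Hras moved in both directions. The list of RAS and its regulators includes Hras. Of its tested members, 9 of 32 (28.1%) were called higher and 7 (21.9%) lower, beside 16.3% and 15.9% of all genes. The median log2 fold change was -0.09 beside 0.00 for all genes tested. Among the small GTPases, Rras2 (1.06), Rras (0.38), Rala (0.32) and Nras (0.27) were higher by the log2 fold changes in brackets and Mras (-0.61) was lower. The exchange factor Rasgrf1 loads RAS with GTP and is best known in neurons. It had 0 counts in each EV library and 1.55, 2.99 and 3.82 CPM with RAS, at least 11.7-fold higher. Rasgrf1 passed the filter on low counts only through its RAS libraries. The GTPase-activating proteins Rasa2 (1.10) and Rasa1 (0.75) rose and Rasa3 (-0.80) and Rasal2 (-0.69) fell. The kinase Braf (-0.82), which RAS activates, fell.

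ERK output and its feedback genes rose together. Of this list, 30 of 47 tested members (63.8%) were called higher and 2 (4.26%) lower, beside 16.3% and 15.9% of all genes. The median log2 fold change was 0.89. Among the dual-specificity phosphatases, which remove phosphate from ERK and related kinases, 6 of 10 were higher, led by Dusp9 (2.91), Dusp5 (2.91) and Dusp6 (2.23). Dusp6 was at 66.7, 60.7 and 24.8 CPM with EV and 204, 259 and 208 CPM with RAS, which brought line 3 from the lowest EV level to that of the other lines. The Sprouty and Spred inhibitors Spry4 (2.04), Spred3 (1.14), Spred1 (1.01), Spry2 (1.01) and Spred2 (0.67) rose, while Spry1 (-0.74) fell. Of the ERK-linked transcription factors, 11 of 22 rose and none fell. They included the ETS factors Etv4 (1.99), Etv1 (1.36) and Etv5 (0.89), the AP-1 subunits Fosl1 (1.93), Jun (1.21) and Fosb (0.53) and Myc (0.89). The immediate-early genes Fos (-0.16), Egr1 (0.30) and Junb (0.21) did not pass the test. The cyclin Ccnd1 (1.00), the hyaluronan receptor Cd44 (1.13), the receptor tyrosine kinase Epha2 (1.47) and Phlda1 (2.03) were also higher, and the pro-apoptotic genes Bcl2l11 (0.90) and Bmf (-1.28) moved in opposite directions.

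Ligands of the EGF receptor rose, and the receptor itself fell. Areg, encoding amphiregulin, was at 1.82, 0.525 and 0.370 CPM with EV and 51.5, 44.2 and 55.3 CPM with RAS, a change of 5.72 ± 0.32, adjusted p = 8.44e-05. The lowest RAS library lay far above the highest EV library, and the 3 RAS libraries were close together. Areg passed the filter on low counts only through its RAS libraries, which selects for a rise. The ligands Hbegf (2.17), Tgfa (2.15), Btc (1.97) and Ereg (1.11) rose with it, as did Errfi1 (3.22), an inhibitor of the receptor that was at 86.6, 35.1 and 73.8 CPM with EV and 559, 587 and 576 CPM with RAS. Egfr (-0.75) and Erbb2 (-0.38) fell. Among the other growth factors, 7 of 27 (25.9%) rose and 8 (29.6%) fell, beside 16.3% and 15.9% of all genes. Placental growth factor Pgf (3.61), Angptl4 (2.22), Lif (2.01) and the KIT ligand Kitl (1.17) were higher. The factors Hgf (-1.60), Igf1 (-1.30), Angpt1 (-1.29), Vegfd (-1.27) and Fgf10 (-1.09), made by connective tissue cells for neighbouring cells, were lower. Ptn, the heparin-binding factor pleiotrophin, fell furthest, from 1799, 1916 and 918 CPM to 81.7, 143 and 59.0 CPM, -4.05 ± 0.16, adjusted p = 4.04e-05.

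Matrix proteases split by type. Of the list, 14 of 39 tested members (35.9%) were called higher and 17 (43.6%) lower, beside 16.3% and 15.9% of all genes. A median of 0.05 thus hid large changes of both signs. Mmp1a, an interstitial collagenase, was at 0.0701, 0.150 and 0.185 CPM with EV and 58.4, 86.2 and 24.0 CPM with RAS and was at least 237-fold higher with RAS. Mmp10, stromelysin 2, was at 6.38, 2.85 and 2.31 CPM with EV and 611, 616 and 324 CPM with RAS and rose by 7.09 ± 0.23, adjusted p = 3.50e-05. Mmp3, stromelysin 1, was at 109, 53.7 and 97.1 CPM with EV and 1685, 2220.2 and 916 CPM with RAS and rose by 4.17 ± 0.40, adjusted p = 5.49e-04. None of the 3 genes had overlapping groups, and line 3 had the lowest RAS level of each. Reads of 50 bases may not always separate Mmp1a from its close copy Mmp1b (4.81). Both passed the filter on low counts only through their RAS libraries.

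These genes are neighbours. In RefSeq on GRCm38.p6, 10 Mmp genes lie at chr9:7272514-7699585. Of the 7 that were tested, Mmp12, Mmp1b, Mmp3, Mmp1a and Mmp10, the 5 between 7344397 and 7510242, were all called higher, with log2 fold changes of 2.81 to 7.09 besides the bound given for Mmp1a. Mmp13 (0.23) and Mmp27 (0.78) on either side were not called. Outside the cluster the membrane-type proteases Mmp14 (-0.99), Mmp16 (-1.54) and Mmp17 (-1.23) and the gelatinase Mmp2 (-0.96) fell, whereas the gelatinase Mmp9 (1.49) rose. The ADAMTS proteases, which cut proteoglycans and procollagen, fell, with 8 of 10 ADAM and ADAMTS genes lower, among them Adamts5 (-2.86), Adamts1 (-1.99) and Adam12 (-1.47). The plasminogen system rose in its activator Plau (3.11), its receptor Plaur (1.09) and the inhibitor Serpinb2. Serpinb2 was at 0.280, 0 and 0.277 CPM with EV and 19.2, 20.9 and 14.3 CPM with RAS, 6.57 ± 0.39, adjusted p = 1.09e-04. It passed the filter on low counts only through its RAS libraries. Of the metalloproteinase inhibitors, Timp1 (0.61) rose and Timp3 (-1.58) fell.

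The stretch just upstream of the start site is shown for 4 of the 5 cluster genes called higher and for Plaur. Each stretch shown held the letters of AP-1, a known nuclear end point of RAS signalling. Of the AP-1 subunits given above, Fosl1, Jun and Fosb rose and Fos and Junb were not called. Fmod, which fell, was searched for the same letters and held none in its window. This is the usual case, as 6.50% of genes tested and 7.33% of genes called lower held them. The part of AP-1 in these changes was not tested. Each line gives the 160 bases before the RefSeq start site on GRCm38.p6, 5′ to 3′ on the strand of the gene, with letters that match TGANTCA on either strand in capitals. The palindrome TGANTCA is the core of AP-1 sites. Positions are Mmp1a chr9:7463981-7464140 (plus strand), Mmp10 chr9:7502182-7502341 (plus), Mmp3 chr9:7445662-7445821 (plus), Mmp1b chr9:7388027-7388186 (minus) and Plaur chr7:24462323-24462482 (plus).
Mmp1a: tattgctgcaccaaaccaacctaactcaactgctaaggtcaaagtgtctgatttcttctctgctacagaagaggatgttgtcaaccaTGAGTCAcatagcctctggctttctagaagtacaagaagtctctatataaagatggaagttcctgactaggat
Mmp10: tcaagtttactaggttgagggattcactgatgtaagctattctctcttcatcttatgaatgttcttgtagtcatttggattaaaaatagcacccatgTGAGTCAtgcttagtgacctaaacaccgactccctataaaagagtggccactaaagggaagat
Mmp3: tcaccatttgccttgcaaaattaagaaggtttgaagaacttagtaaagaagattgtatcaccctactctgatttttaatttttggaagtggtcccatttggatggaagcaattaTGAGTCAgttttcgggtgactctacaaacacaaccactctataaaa
Mmp1b: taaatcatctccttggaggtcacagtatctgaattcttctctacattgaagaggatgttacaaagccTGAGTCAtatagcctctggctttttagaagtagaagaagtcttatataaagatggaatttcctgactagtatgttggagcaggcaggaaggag
Plaur: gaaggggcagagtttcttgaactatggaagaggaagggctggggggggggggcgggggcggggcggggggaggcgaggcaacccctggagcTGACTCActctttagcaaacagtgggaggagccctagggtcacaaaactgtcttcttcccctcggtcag

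The match began 73 bases before the start site in Mmp1a, 63 in Mmp10, 46 in Mmp3, 93 in Mmp1b and 69 in Plaur. In the 4 Mmp genes the letters were TGAGTCA, and in Plaur they were TGACTCA. Of the other tested genes of the cluster, Mmp12 and the uncalled Mmp13 also held the letters within 250 bases before and 50 after a start site, and the uncalled Mmp27 did not. A match describes letters in a window and was not tested as a binding site.

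The AP-1 letters were searched in RefSeq windows from 250 bases before to 50 after the start, and 10229 of the 13687 genes tested were matched to a window by symbol. They were found for 6.50% of the genes tested, for 8.97% of all 27025 genes with a window and in 7.81% of all 32851 windows. Of genes called higher 10.6% held them, of genes called lower 7.33% and of genes not called 5.31%. The share was 6.59% of genes called higher by under 1.5-fold, 8.80% from 1.5 to 2-fold, 13.7% from 2 to 4-fold, 17.8% from 4 to 16-fold and 39.1% (18 of 46) at 16-fold and over, with genes at or under the floor entered at their bound. It was 39.3% (11 of 28) at 16-fold and over without those genes. It was 31.7% (13 of 41) without prolactin-family genes and Mmp1b, some of which are close copies of others. No such gradation was seen among genes called lower, where the share was 6.16%, 7.46%, 9.83% and 6.50% up to 16-fold, and 0 of 6 beyond. The 18 genes included Plet1, Mmp1a, Mmp10, Serpinb2, Chrna1, Upp1, Sprr1a, Cldn4, Tfpi2 and 4 prolactin-family genes. Of the 18, Upp1, Prl3d3 and Prl8a9 had every EV library at or under the floor. Plet1, Mmp1a, Mmp1b, Serpinb2, Chrna1, Cldn4, Prl3d2 and Prl3d1 passed the filter on low counts only through their RAS libraries. Genes admitted in that way had their direction fixed by the filter, and the share without all of them was not computed. Mmp1b, Serpinb2, Chrna1 and Cldn4 are still among the 28 genes behind the 39.3%. Of the protease list 34.6% (9 of 26) held the letters, and of the list of ERK output 5.71% (2 of 35). The other letters searched, on both strands, were each found in 1 of the 46 genes at 16-fold and over, too few to compare. They were the cyclic AMP response element TGACGTCA (3.55% of genes tested), the E-box CACGTG (11.6%) and the interferon-stimulated response element core, GAAA repeated after a gap of 2 bases (3.71%).

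**Figure D2:**
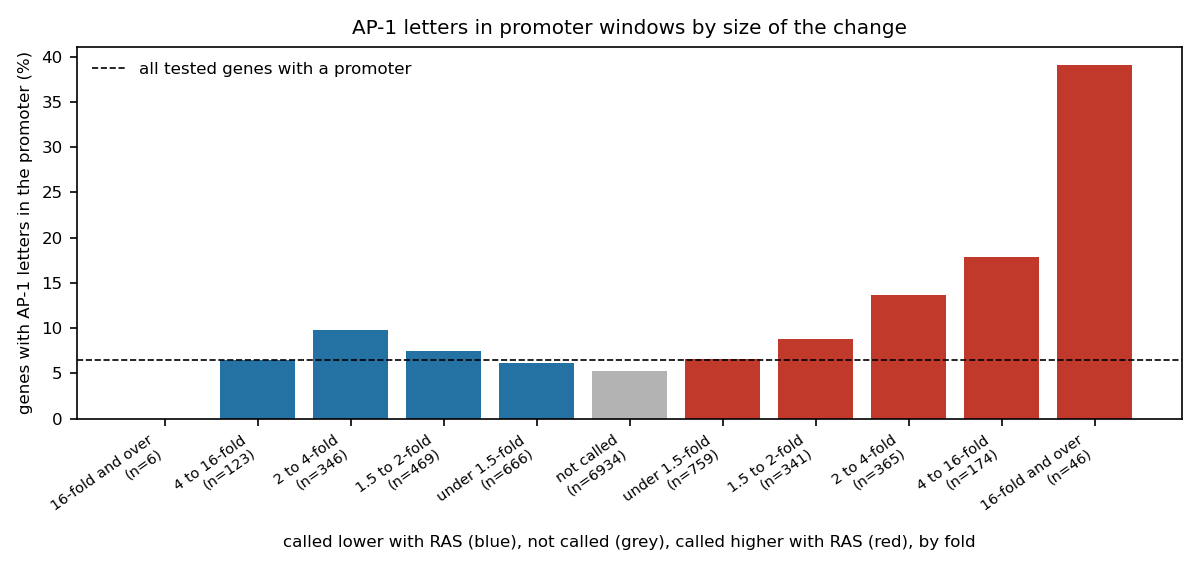
Percent of genes (vertical axis) with the AP-1 letters TGANTCA in a promoter window, by direction and size of the change with RAS (horizontal axis, number of genes in brackets), with the share of all tested genes (6.50%) as a dashed line. Genes at or under the floor of 3 counts enter at their bound, and the share climbs to 39.1% in the genes called higher by 16-fold and over and stays at or under 9.83% among genes called lower.

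Areg, the EGF receptor ligand described above, held the letters TGACGTCA 61 bases before the start site, at chr5:91139439-91139598 (plus strand, same window and build), shown in capitals.
Areg: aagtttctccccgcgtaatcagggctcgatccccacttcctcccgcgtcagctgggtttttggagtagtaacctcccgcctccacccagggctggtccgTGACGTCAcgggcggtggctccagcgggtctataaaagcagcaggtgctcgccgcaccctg

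Several of the genes with the largest rises are markers of other lineages. Plet1, a surface protein of placental and epithelial progenitors, was at 0.140, 0 and 0 CPM with EV and 52.8, 80.9 and 22.0 CPM with RAS and was at least 218-fold higher. Nefl, the light neurofilament, was at 0.0701, 0.225 and 0.0924 CPM with EV and 37.8, 45.8 and 17.9 CPM with RAS and was at least 142-fold higher. Nptx1, a secreted neuronal pentraxin, had the smallest p of all genes and was at 0.841, 1.65 and 1.20 CPM with EV and 215, 399 and 249 CPM with RAS, 7.87 ± 0.12, adjusted p = 2.06e-06. In these 3 genes each RAS library was above each EV library. Plet1 and Nefl passed the filter on low counts only through their RAS libraries, which selects for a rise. The growth-cone protein Gap43 went from 48.0, 36.9 and 29.6 CPM to 492, 451 and 314 CPM. Entpd1, the surface ATP-hydrolysing enzyme CD39, was at 21.6, 22.6 and 6.37 CPM with EV and 485, 706 and 200.2 CPM with RAS. Add2, a membrane skeleton protein, was at least 81.6-fold higher, and the muscle-type acetylcholine receptor subunit Chrna1 rose by 5.94. Both passed the filter only through their RAS libraries. Myod1 and Myf5 were at 0 as given above, and of the 13 skeletal muscle markers 3 were tested and 2, Chrna1 and Acta1 (1.63), were called higher. Of 12 neural markers 7 were tested, with 3 called higher and 2, Map2 (-3.07) and Tubb3 (-1.88), lower.

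The simple-epithelium keratins and several junction genes rose as well. Krt18 was at 9.18, 5.63 and 4.43 CPM with EV and 142, 144 and 104 CPM with RAS, 4.35 ± 0.16, adjusted p = 3.61e-05. Its partner Krt8 went from 0.210, 0.0751 and 0.0924 CPM to 8.46, 5.58 and 4.30 CPM, at least 25.7-fold higher. Both keratins were higher in every RAS library than in any EV library. The tight junction gene Cldn4 (4.97) and the desmosome genes Dsp (2.59), Perp (2.28) and Dsc2 (1.87) rose, and Krt7 (-1.19) fell. In all, 11 of 15 tested members of the epithelial list were called higher and 1 lower. However, 4 of the 15, Krt8 and Cldn4 among them, passed the filter only through their RAS libraries. Of the 33 listed genes 18 did not pass it. Among those were the basal keratins Krt5 and Krt14 and the junction gene Cdh1, each under 1 CPM in every library. Of 11 prolactin-family and casein genes 5 passed, each only through its RAS libraries, so their direction was fixed by the filter. Prl3d1, a placental lactogen, had 0 counts in every EV library and 5.61, 5.74 and 1.95 CPM with RAS, at least 18.7-fold higher. Some prolactin-family genes are close copies of each other, so reads of 50 bases may be split between those.

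Secreted inflammatory factors divided by family. In the cytokine and chemokine list, 18 of 34 tested members (52.9%) were called higher and 6 (17.6%) lower, with a median of 1.10. Among all genes 16.3% were higher and 15.9% lower. CC chemokines, which draw monocytes and eosinophils, had 9 of 12 higher and none lower. Ccl2, the main monocyte attractant, was at 167, 108 and 35.8 CPM with EV and 608, 653 and 186 CPM with RAS, 2.28 ± 0.15, adjusted p = 1.41e-04. The RAS libraries lay above the EV libraries, and line 3 was lowest in both groups. Ccl6, a macrophage-associated chemokine, was at 6.38, 4.65 and 1.11 CPM with EV and 108, 179 and 32.9 CPM with RAS, and its RAS libraries were also clear of the EV libraries. Ccl11 (2.77), Ccl12 (2.42) and Ccl7 (1.39) rose too. CXC chemokines went the other way in 6 of 10 tested members. Cxcl15 (-4.60), Cxcl14 (-2.37), the stromal factor Cxcl12 (-1.84), Cxcl5 (-1.34) and Cxcl1 (-0.87) fell, and only Cxcl2 (2.76) and Cxcl10 (2.27) rose. Cxcl1, a neutrophil attractant, was at 5.05, 8.56 and 4.90 CPM with EV and 3.02, 4.64 and 2.44 CPM with RAS, lower in each line.

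Among the interleukins, the alarmins Tslp (4.73) and Il33 (2.92) and the gp130 cytokine Il11 (1.90) rose. Tslp was at 1.68, 0.450 and 0.462 CPM with EV and 22.8, 24.9 and 23.7 CPM with RAS. Its RAS libraries were close to each other and clear of the EV libraries. Tslp passed the filter on low counts only through its RAS libraries, which selects for a rise. Il6, a senescence-associated cytokine, was at 3.15, 2.10 and 4.43 CPM with EV and 2.76, 2.20 and 1.79 CPM with RAS and did not pass the test (-0.48 ± 0.31, adjusted p = 0.268). Il1a and Il1b, which lie upstream of much of this secretion, did not pass the filter. Their counts were 2, 1 and 0 with EV and 12, 24 and 6 with RAS for Il1a, and 1, 2 and 0 with EV and 7, 61 and 3 with RAS for Il1b. The summed macrophage markers given above changed from EV to RAS by less than the gap between line 3 and the other lines. Of these markers 6 of 20 were called higher and 2 lower, beside 16.3% and 15.9% of all genes. Their part in the chemokine changes was not tested.

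NF-κB targets moved little as a list, with 7 of 24 tested members called higher and 2 lower and a median of 0.12. These shares were 29.2% and 8.33%, beside 16.3% and 15.9% of all genes. The inhibitor gene Nfkbia (0.20) and the adhesion genes Icam1 (0.03) and Vcam1 (0.13) were not called, and the deubiquitinase Tnfaip3 (1.45) was higher. The prostaglandin pathway stood out within both this list and the complement and prostaglandin list. Ptges, which makes prostaglandin E2, was at 16.9, 15.6 and 21.6 CPM with EV and 177, 239.6 and 143 CPM with RAS, 3.35 ± 0.22, adjusted p = 1.41e-04. Ptgs2, the inducible cyclooxygenase, was at 198, 170.5 and 99.9 CPM with EV and 448, 535 and 528 CPM with RAS, 1.74 ± 0.22, adjusted p = 0.0016. Both had RAS libraries clear of the EV libraries. Ptgs1 (1.23) and the prostacyclin synthase Ptgis (1.46) rose, and Hpgd (-0.62), which breaks prostaglandins down, fell. Of the complement genes, 3 of 10 tested members (30%) were called higher and 2 (20%) lower, beside the same shares of all genes. Their median was 0.25. The complement proteases C1ra (-1.63) and C1s1 (-1.34) fell.

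The interferon response differed from line to line. Type I interferon makes cells produce antiviral proteins through transcription factors that bind interferon-stimulated response elements. Of the 71 tested members, 70 were higher with RAS in line 1 and 67 in line 2, but 20 in line 3. The median log2 change was 1.22 in line 1, 1.05 in line 2 and -0.38 in line 3, beside 0.01, 0.00 and -0.01 for all genes tested. Changes of at least 2-fold upward were counted for 45, 37 and 4 members. The paired fit called 26 (36.6%) higher and 1 (1.41%) lower, beside 16.3% and 15.9% of all genes. Only 2 of the 71 had groups that did not overlap, beside 30.9% of all genes. Without line 3 the fit called 64 higher and 1 lower, without line 1 it called 6 and 1, and without line 2 it called 8 and 1.

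Ifit3, which binds viral RNA complexes, was at 40.1, 51.9 and 29.9 CPM with EV and 257, 254 and 30.9 CPM with RAS, 1.77 ± 0.47, adjusted p = 0.0301. The RAS library of line 3 lay below the EV libraries of the other lines, so the groups overlapped. Rsad2, the antiviral enzyme viperin, was at 11.0, 13.2 and 3.23 CPM with EV and 89.0, 73.2 and 8.28 CPM with RAS, 2.49 ± 0.26, adjusted p = 7.32e-04. Isg15, a ubiquitin-like modifier, was at 79.4, 109 and 48.3 CPM with EV and 259.6, 262 and 28.2 CPM with RAS, and its change of 0.82 did not pass the test. Of the antigen presentation genes, 6 of 11 were called higher. Nlrc5, the activator of MHC class I genes, was at 9.25, 17.6 and 8.32 CPM with EV and 75.6, 98.2 and 55.6 CPM with RAS, rose by 2.74 ± 0.13, adjusted p = 5.75e-05 and had no overlap. H2-K1 (1.66), H2-D1 (1.16) and B2m (0.81) also rose. Among the factors that respond to interferon, Irf7 (1.25) rose, while Irf9 (0.10) was not called. The 20 macrophage markers were lowest in line 3 under both vectors, as given above, and their part in the difference between lines was not tested.

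The interferon response element core was found on either strand in 47.2% (25 of 53) of the interferon genes with a promoter window, against 3.71% of all tested genes with one. Ifit3 held the core on the opposite strand 156 and 122 bases before its start, in capitals in its stretch at chr19:34583369-34583528 (plus strand, same length and build as above).
Ifit3: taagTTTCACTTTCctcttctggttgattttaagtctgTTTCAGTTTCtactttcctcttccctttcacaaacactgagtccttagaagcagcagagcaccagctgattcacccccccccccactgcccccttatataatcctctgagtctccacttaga

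**Figure D3:**
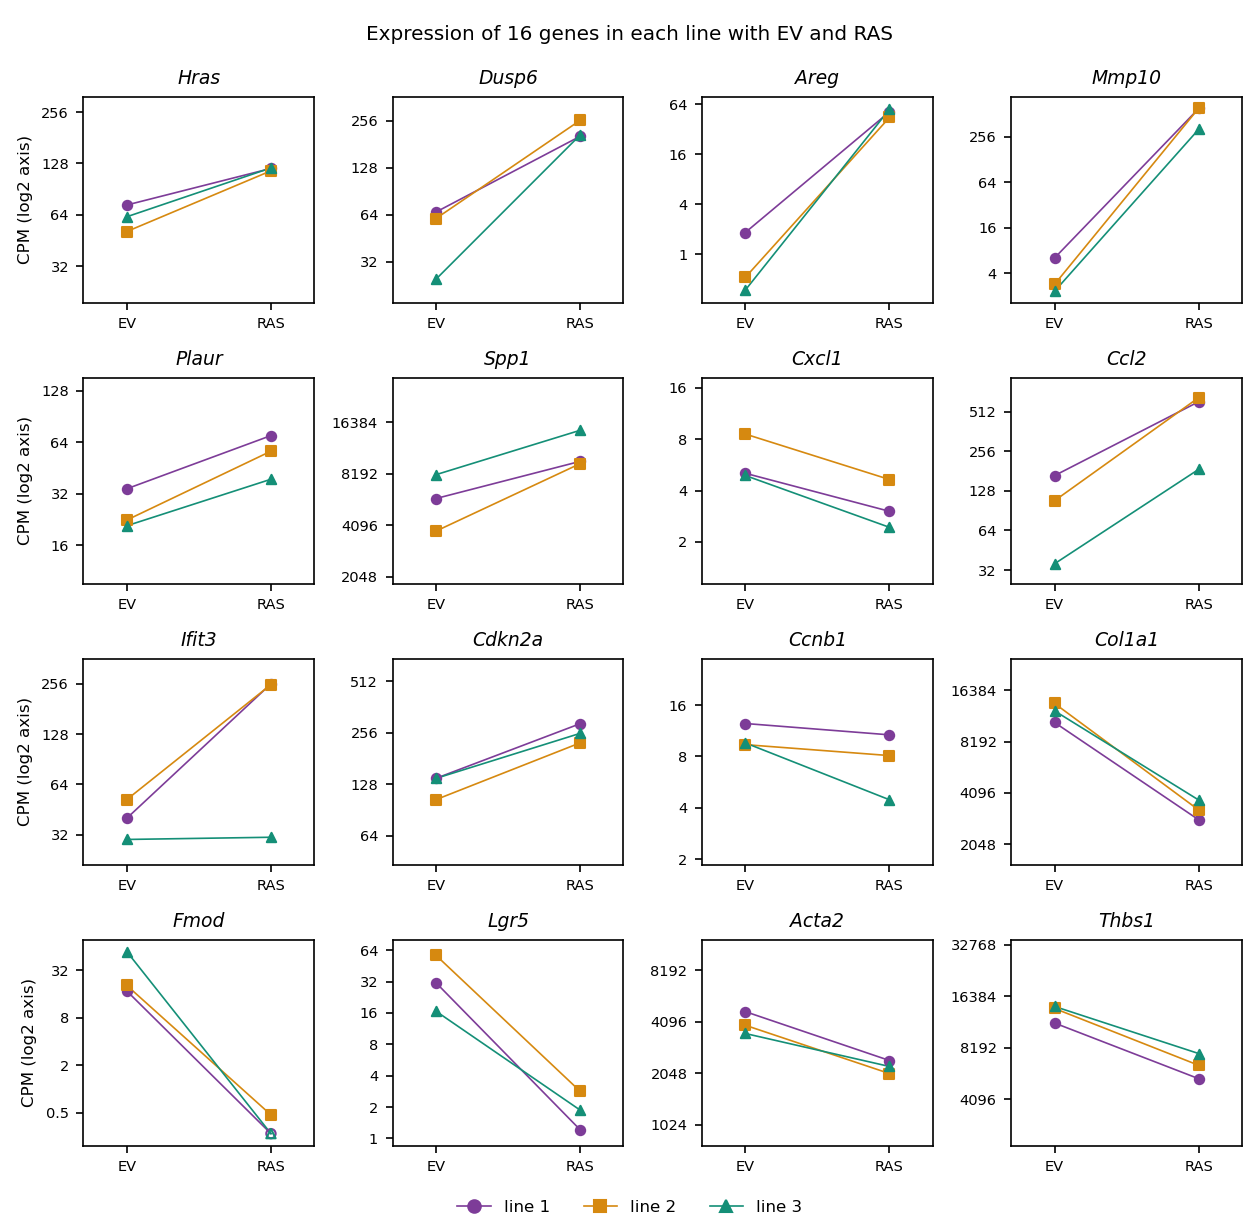
CPM of 16 genes (vertical axes, log2 scale, a separate range for each gene) in the EV and RAS library of each line, joined by a line. Open symbols mark values under 3 counts, drawn at that floor, and Ifit3 shows the flat course of line 3 beside the rises of lines 1 and 2.

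Of the CDK inhibitors, the Cdkn2a and Cdkn2b locus rose. Cdkn2a, which encodes p16 and p19Arf, was at 138, 104 and 138 CPM with EV and 289, 223 and 254 CPM with RAS, 1.01 ± 0.08, adjusted p = 2.98e-04. Cdkn2b, encoding p15, was at 75.1, 56.1 and 80.0 CPM with EV and 116, 109 and 139.7 CPM with RAS, 0.79 ± 0.09, adjusted p = 0.0012. Neither gene had overlapping groups, and a count per gene does not separate p16 from p19Arf. Cdkn1a, encoding the p53 target p21, was at 555, 546 and 618 CPM with EV and 585, 556 and 631 CPM with RAS and did not pass the test (0.04 ± 0.08, adjusted p = 0.69). Cdkn1b (-0.83) and Cdkn2c (-0.65) fell. Of the 31 tested genes for p53 and its targets, 10 (32.3%) rose and 4 (12.9%) fell, beside 16.3% and 15.9% of all genes. Mdm2 (1.06), which degrades p53, and the desmosome gene Perp (2.28) rose, and Gadd45b (-1.59) and the death receptor Fas (-1.25) fell. Trp53 was at 109, 95.9 and 99.4 CPM with EV and 127, 114 and 102 CPM with RAS, and its change of 0.17 was not called.

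Cell division genes fell modestly. Of the mitosis list, 1 of 54 tested members were called higher and 29 lower, with a median of -0.43 and line medians of -0.21, -0.39 and -0.69. Mki67, the proliferation antigen Ki-67, was at 94.7, 153 and 106 CPM with EV and 51.2, 58.5 and 50.4 CPM with RAS, -1.12 ± 0.11, adjusted p = 6.45e-04. The kinetochore gene Knl1 (-1.14) and the spindle motor Kif11 (-0.94) fell with it. Cdk1 (-0.11) and Ccnb1 (-0.47), the mitotic kinase and its cyclin, were not called. DNA replication moved less, with 4 of 70 tested members called higher and 15 lower and a median of -0.16. The shares were 5.71% and 21.4%, beside 16.3% and 15.9% of all genes. Only 1 of 17 licensing genes, Mcm3 (-0.48), was called. The repressor E2f8 (2.40) and Ccnd1 rose against this trend. E2f8 was at 9.53, 11.6 and 8.87 CPM with EV and 41.6, 51.7 and 68.3 CPM with RAS, with no overlap of the groups.

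Of the chromatin list, 5 of 28 tested members were called higher and 4 lower, beside 16.3% and 15.9% of all genes tested. The high-mobility group genes Hmga1 (2.85) and Hmga2 (1.20), known parts of senescent heterochromatin foci, and the nucleosome-binding Hmgn5 (2.17) rose. Hmga1 was at 29.0, 23.5 and 14.1 CPM with EV and 168, 168 and 132 CPM with RAS, without overlap. Lmnb1, whose loss is a mark of senescence, was at 29.4, 31.2 and 21.1 CPM with EV and 29.6, 27.0 and 18.8 CPM with RAS and did not pass the test (-0.12 ± 0.10, adjusted p = 0.393).

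Genes of the collagen matrix fell in most cases. Of the collagen and elastic fibre list, 2 of 51 tested members were called higher and 42 lower, beside 15.9% lower among all genes, with a median of -0.95. Line medians were -1.02, -1.05 and -0.84. Col1a1 and Col1a2, the chains of type I collagen, had the largest and third-largest losses in mean CPM of all genes. Col1a1 was at 10589, 13682 and 12381 CPM with EV and 2852, 3255 and 3723 CPM with RAS, -1.90 ± 0.11, adjusted p = 1.04e-04. Col1a2 was at 8553, 9888 and 8843 CPM with EV and 3208, 3496 and 3453 CPM with RAS, -1.42 ± 0.10, adjusted p = 1.58e-04. In both genes every RAS library lay below every EV library. Of the 9 tested fibril-forming collagens 8 fell. The short-chain collagen Col8a2 went from 17.0, 17.0 and 18.5 CPM to 0.0863, 0.550 and 1.06 CPM, -4.93 ± 0.36, adjusted p = 1.92e-04. Elastin Eln (-3.05), the microfibril genes Fbn2 (-2.74) and Fbn1 (-1.83), the crosslinking enzyme Lox (-1.95) and the collagen chaperone Serpinh1 (-0.70) fell. The exceptions called higher were Efemp1 (1.33) and Col18a1 (1.98), a basement membrane collagen.

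Small leucine-rich proteoglycans, which bind collagen fibrils, fell in 7 of 9 tested members. Fmod, fibromodulin, was at 17.5, 20.6 and 55.2 CPM with EV and 0.0863, 0.472 and 0.162 CPM with RAS and had the lowest log2 fold change among genes with a mean of at least 100 counts, -6.90 ± 0.35, adjusted p = 6.95e-05. Aspn, asporin, was at 880.0, 944 and 587 CPM with EV and 61.2, 89.8 and 62.5 CPM with RAS, -3.49 ± 0.14, adjusted p = 4.04e-05. Both were lower in every RAS library. Bgn, biglycan, fell by 1.06 on the log2 scale, from 6703, 6136 and 7269 CPM to 2819.5, 3032 and 3829 CPM, while Dcn (0.77), decorin, rose. Thbs1, the matricellular protein thrombospondin 1, was at 11439.9, 13917 and 14299 CPM with EV and 5403, 6472 and 7582 CPM with RAS, -1.03 ± 0.10, adjusted p = 6.25e-04. Smoc1 (-3.99), Comp (-3.98), Vcan (-1.81) and Postn (-1.12) also fell. Has3 (2.77) and Has2 (1.13), which make hyaluronan, rose. Changes were lower in longer transcripts in lines 1 and 2, with a Spearman rho of change against transcript length of -0.222 and -0.317, but hardly in line 3 (-0.0234), over 12672 genes. The collagen list has a median transcript of 3737 bases beside 2359 bases for all genes, and its median was -0.84 in line 3. The part of transcript length in the matrix changes was not tested.

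Contractile genes of smooth-muscle type fell in 10 of 16 tested members, among them Mylk (-2.89), Actg2 (-2.30), Myh11 (-2.22) and Cnn1 (-1.48). Acta2, the smooth-muscle actin of myofibroblasts, was at 4699, 3911 and 3499.9 CPM with EV and 2432, 2040.4 and 2244 CPM with RAS, -0.84 ± 0.10, adjusted p = 0.0015. By contrast the cytoskeletal genes Actb (0.52) and Zyx (0.60) rose. Integrins were exchanged: Itga2 (5.13), Itgb3 (2.63) and Itga6 (2.19) rose, and Itga11 (-2.99), Itga8 (-1.37) and Itga1 (-1.15) fell. Itga2, the collagen-binding chain alpha 2, was at 0.911, 1.20 and 1.94 CPM with EV and 34.4, 60.1 and 46.0 CPM with RAS, and the collagen-binding chain Itga11 was at 204, 286 and 507 CPM with EV and 18.7, 43.4 and 70.2 CPM with RAS. The groups did not overlap for either chain, and they moved in opposite directions. Of the Eph, ephrin, semaphorin and related guidance genes, 17 of 32 (53.1%) fell and 5 (15.6%) rose, the latter led by Sema7a (4.96). Among all genes 15.9% fell and 16.3% rose. Cdh5, best known from endothelium, was at least 11.8-fold higher but passed the filter only through its RAS libraries. Of 12 endothelial markers 6 were tested, with 3 called higher, Cdh5 among them, and 1, Erg (-2.28), lower. The mesenchymal cadherin Cdh11 (-1.39) fell.

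Secreted patterning signals were rearranged. Of the TGF-beta, BMP and Wnt list, 15 of 61 tested members (24.6%) were called higher and 27 (44.3%) lower. Among all genes 16.3% were higher and 15.9% lower. Rspo2, which amplifies Wnt signals through LGR receptors, was at 62.9, 42.7 and 88.8 CPM with EV and 3.71, 2.99 and 3.98 CPM with RAS, -4.15 ± 0.15, adjusted p = 3.61e-05. Lgr5, one of these receptors, was at 31.2, 57.2 and 16.6 CPM with EV and 1.21, 2.83 and 1.87 CPM with RAS, -4.09 ± 0.25, adjusted p = 1.12e-04. Both fell in each line without overlap. Wnt4 (-3.47), Wnt2 (-1.93) and the Wnt antagonists Sfrp4 (-3.69) and Sfrp1 (-1.89) fell. Sfrp2 (4.15), of the same family, rose from 2.38, 2.03 and 4.16 CPM to 56.8, 76.9 and 24.6 CPM. Wnt7b rose from 0.0701, 0.225 and 0 CPM to 9.50, 11.8 and 7.63 CPM, at least 40.6-fold. It passed the filter on low counts only through its RAS libraries. Bmp2, a bone morphogenetic protein, was at 1.89, 2.18 and 3.05 CPM with EV and 40.8, 60.2 and 51.6 CPM with RAS, 4.43 ± 0.16, adjusted p = 3.61e-05, while Bmp4 (-1.01) and the BMP targets Id4 (-2.39), Id3 (-0.85), Id2 (-0.70) and Id1 (-0.49) fell. Tgfb2 (-2.74) and Tgfb3 (-1.20) fell and Tgfb1 (0.44) rose.

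Transcription factors that mark mesenchyme fell in 22 of 37 tested members and rose in 2. Msx1 was at 22.0, 19.2 and 33.0 CPM with EV and 4.23, 2.52 and 5.60 CPM with RAS, -2.60 ± 0.15, adjusted p = 9.59e-05. Msx2, its close relative, was at 4.98, 6.01 and 6.01 CPM with EV and 32.6, 23.4 and 41.2 CPM with RAS, 2.48 ± 0.18, adjusted p = 1.86e-04. The 2 genes moved in opposite directions without overlap. Foxd1 (-2.61), Osr2 (-1.97), Prrx2 (-1.89) and Foxf1 (-1.74) fell, and Prrx1 (-0.34) and Twist1 (-0.70) fell less. Hox genes, which record body position, had 2 (6.06%) higher, 7 (21.2%) lower and 24 not called, beside 16.3% and 15.9% of all genes. For Foxd1, Pax9 and the Hox gene Hoxd13 the EV and RAS libraries overlapped, although the level fell within each line.

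Part of the biosynthetic and energy genes rose by small amounts. Of the ribosomal protein genes, 22 of 78 tested members were called higher and 0 lower, with a median of 0.23 and line medians of 0.23, 0.40 and 0.08. Of the oxidative phosphorylation genes, 20 of 44 tested members were called higher and 0 lower, with a median of 0.27. These transcripts are short, with medians of 723 and 866 bases, and the sixth of genes with the shortest transcripts had a median of 0.13 and 22.1% called higher. The part of transcript length in these changes was not tested. Only 5 of the 78 and 4 of the 44 genes had groups that did not overlap, beside 30.9% of all genes. Without line 1 the fit called none of either list, and without line 2 it called 2 of each. Ribosomal protein genes have many processed copies, which can take reads of 50 bases.

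In glycolysis and the pentose phosphate path, 14 of 28 tested members were called higher and 1 lower, with a median of 0.30. The glucose transporter Slc2a1 was at 163, 101 and 114 CPM with EV and 277, 258 and 296 CPM with RAS, 1.16 ± 0.13, adjusted p = 0.0011, and the pentose phosphate enzyme Taldo1 at 88.1, 69.1 and 55.6 CPM with EV and 168, 141 and 104 CPM with RAS, 0.95 ± 0.08, adjusted p = 2.87e-04. Neither had overlapping groups. Pgk1 (0.55), Pgam1 (0.55) and Hk1 (0.57) rose, while Gapdh (0.05) and Ldha (0.11) were not called. Nucleotide synthesis had 10 of 21 genes higher and none lower, led by Ppat (0.78), the first step of purine synthesis. Among NRF2 targets, which protect against oxidants, 12 of 28 (42.9%) rose and 2 (7.14%) fell, beside 16.3% and 15.9% of all genes. Srxn1, sulfiredoxin, was at 67.1, 57.4 and 49.5 CPM with EV and 241, 296 and 189 CPM with RAS, 2.05 ± 0.12, adjusted p = 1.03e-04, and Hmox1, heme oxygenase 1, at 202, 145 and 180.3 CPM with EV and 460.5, 375 and 555 CPM with RAS, 1.40 ± 0.10, adjusted p = 2.04e-04. Nqo1 (0.12) and Gclc (-0.05), 2 further targets, were not called.

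Sterol and fatty acid synthesis, like the interferon response, differed by line. It fell in 33 of 36 genes in line 1 and 31 in line 2 but 17 in line 3, with line medians of -0.47, -0.31 and 0.02. The paired fit called 10 lower and 2 higher, and without line 3 it called 25 lower and 2 higher. Cyp51, a sterol demethylase, was at 194, 188 and 108 CPM with EV and 77.5, 109.8 and 84.3 CPM with RAS, -0.82 ± 0.17, adjusted p = 0.0128. The EV library of line 3 lay just below the RAS library of line 2. The ATF4 and amino acid list (7 of 32 tested members called higher and 9 lower), the endoplasmic reticulum list (4 higher and 3 lower of 27), ribosome biogenesis (8 higher and 1 lower of 44) and the lysosome and autophagy list (6 higher and 9 lower of 47) had medians between 0.03 and 0.15, apart from 0.02 for the first. Among all genes tested, 16.3% were called higher and 15.9% lower. Trib3 (-0.97) and Slc1a4 (-0.97) led the falls among ATF4 targets, and Phgdh (0.47), the first step of serine synthesis, rose. Rps6kb1, encoding S6K1, was at 83.8, 103 and 94.4 CPM with EV and 62.3, 71.6 and 75.4 CPM with RAS and fell by 0.43 on the log2 scale (adjusted p = 0.0090), and Rps6kb2 (0.05) was not called.

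**Figure D4:**
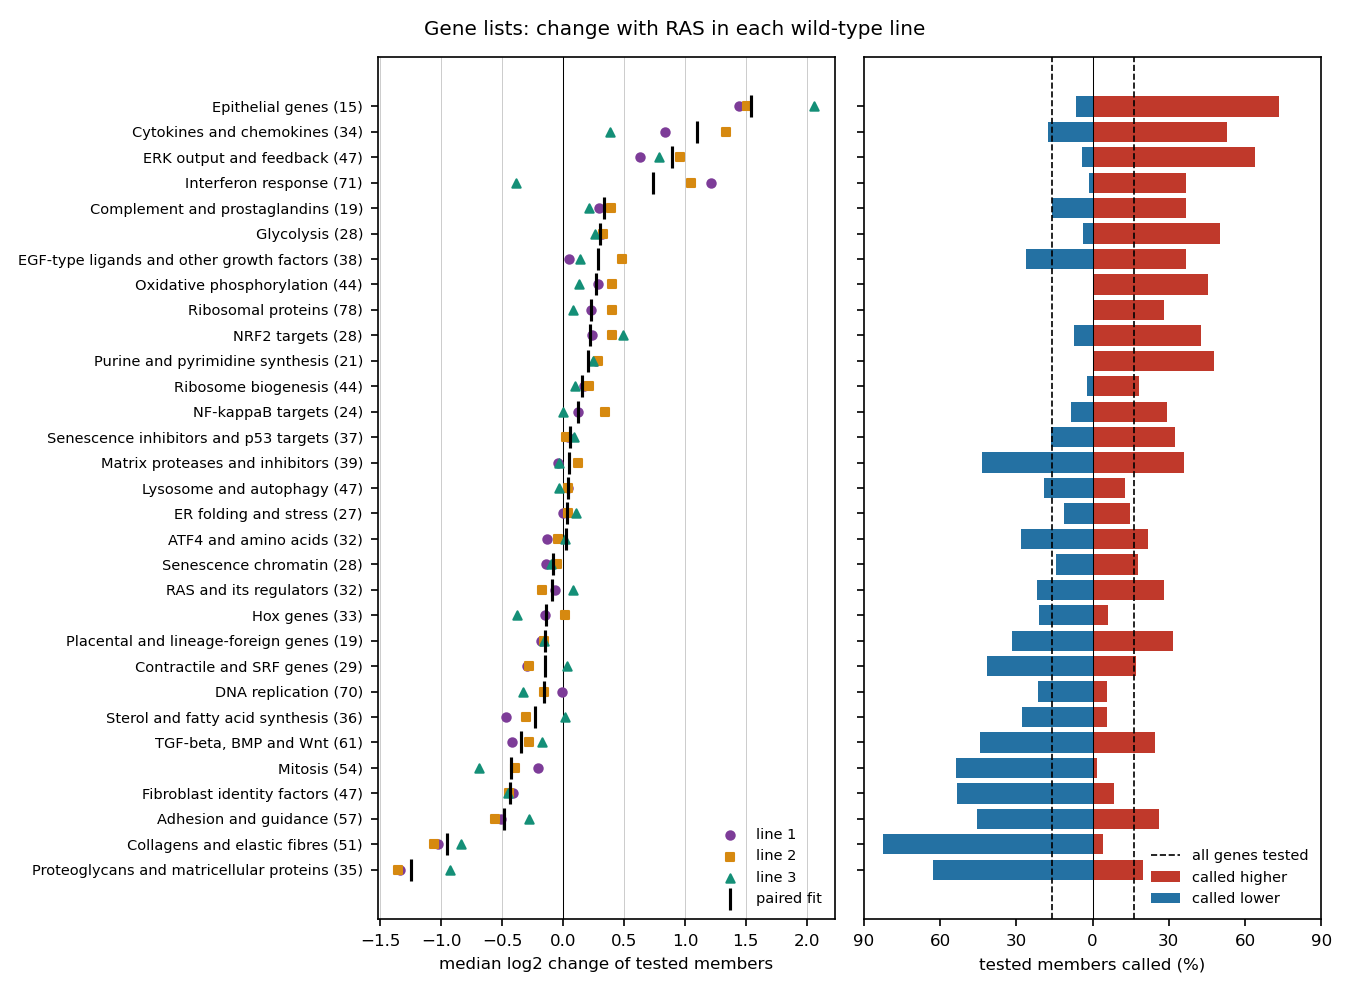
Left, median log2 change of the tested members of 31 gene lists (number in brackets) in each line and in the paired fit. Right, percent of tested members called higher (red) or lower (blue), with the shares of all genes, 16.3% and 15.9%, as dashed lines. Collagens lie far to the left in all 3 lines, and the interferon response is the list in which line 3 lies furthest from lines 1 and 2.

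The WT cells of the S6K1/S6K2 series offered the same contrast in 3 other lines, with no shared library. There 3525 of 13548 genes tested were called, 26.0%. Of the 4267 genes called in the S6K1 series and tested in both, 2156 were called in the same direction there and 29 in the opposite one, and 3795 had the same sign. A test of the difference itself over the 12 libraries called 4 of 14235 genes, 0.0281%, while 3319 had an unadjusted p under 0.05. That count depended on the fit, with 0 genes called and 1515 at an unadjusted p under 0.05 without the line as a block, and 638 called by DESeq2. By the study's methods the WT cells of the S6K1/S6K2 series came from WT mothers of an earlier breeding stage, and series, breeding and any batch cannot be told apart.

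The leading genes and lists are given side by side. Fmod changed by -6.90 in the S6K1 series and -7.26 in the other. Mmp10 changed by 7.09 and 9.67, and Col1a1 by -1.90 and -2.04. The collagen list had medians of -0.95 and -1.01, and the ERK list 0.89 and 0.89. The interferon list had medians of 0.74 and -1.09, with 2 higher and 9 lower of 69 in the S6K1/S6K2 series. Of its members 43 of 71 had an unadjusted p under 0.05 for the difference, beside 3237 of all 13687 genes, and none passed the adjustment. Contractile genes had medians of -0.15 and 0.53. Thbs1 changed by -1.03 and 0.70, a difference that was not called (adjusted p = 0.123).

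**Figure D5:**
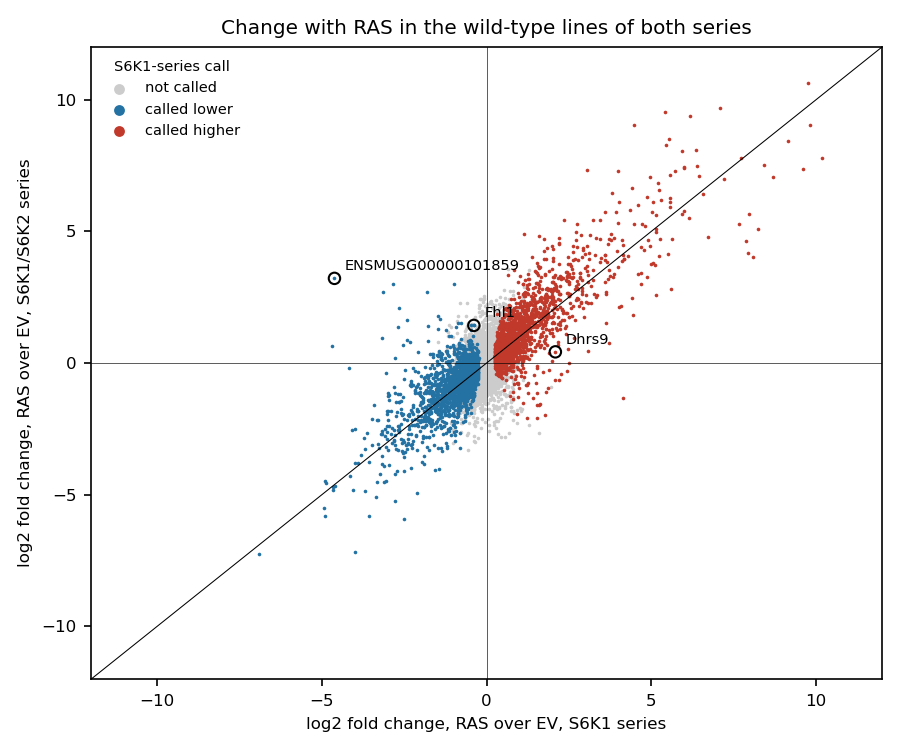
Log2 fold change of RAS over EV in the S6K1 series (horizontal axis) and in the S6K1/S6K2 series (vertical axis) for genes tested in both, coloured by the call in the S6K1 series, with the line of equal change. Circles mark 3 of the 4 genes whose change differed between the series, the fourth (Lypd1) not having passed the filter of the S6K1 series alone.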

How the data were processed

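Gene expression was measured by single-end poly(A) RNA sequencing, and the deposited table holds raw counts per gene, made by the authors. The study's methods name TopHat, mm9, HTSeq and DESeq2, whereas the submitters' processing notes name CASAVA, STAR 2.7.1a, DESeq2 1.28.1 and mm10, which was not settled here. Genes passing edgeR's expression filter (13687 of 55401 identifiers, minimum count 10) were scaled by TMM and tested by edgeR 4.0.16 quasi-likelihood F-tests in R 4.3.3, with the line as a block and Benjamini-Hochberg adjustment at 0.05. Equal replicate numbers were taken as 1 line: EV and RAS deviations correlated at 0.703, 0.462 and 0.677 for the same number. Nothing in the labels gives separate cultures within a line. Differences between the series were tested as an interaction over 12 WT libraries. CPM are TMM-scaled, and changes by line are differences of log2 CPM with a prior count of 2. A floor of 3 counts gave lower bounds, and such floors cover counting error only. Symbols were those of an Ensembl-based table, matched for 32589 identifiers and updated to RefSeq names where a synonym was unique. Promoters and positions were from RefSeq on GRCm38.p6, so no position was read from the authors' build. Genes named by rule were up to 10 with the highest and 10 with the lowest fold change, the 5 largest gains and losses in CPM, the 5 smallest p in each direction and for the difference between series, up to 4 leading members of each list and further members where their role needed them, and a fixed set of genes of RAS, S6K, senescence and its secretion, some of which are not reported here. The members and lists were chosen with earlier results of these data known. The fits were tested on simulated data. Alternatives were another scaling, filter, tool and fold threshold, no block, all 9 libraries of the series, and each replicate left out.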

Additional observations from a re-analysis of the deposited data

Results flagged for a closer look

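A test of the difference between the series, edgeR's interaction term over 12 libraries with the line as a block, called 4 genes, listed here as the change in the S6K1/S6K2 series minus that in the S6K1 series, on the log2 scale. Fhl1, a LIM-domain protein of muscle and fibroblasts, differed by 1.81 (adjusted p = 0.0370), with changes of -0.39 in the S6K1 series and 1.43 in the other. Dhrs9, a retinol dehydrogenase, differed by -1.66 (adjusted p = 0.0370), with changes of 2.09 and 0.42. Lypd1 differed by -6.50 (adjusted p = 0.0370). It did not pass the filter of the S6K1 series and changed by -6.86 in the other. The gene ENSMUSG00000101859, chosen after its values were seen, differed by 7.87 (adjusted p = 0.0046), with changes of -4.62 and 3.21. Series and batch cannot be told apart.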

How the results depend on the processing

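The count of genes changed by RAS was 4411. It was 1486 with no replicate block, 1859 with all 9 libraries of the series and no replicate block, and 1346 when tested against a change of 1.5-fold. It ranged from 2034 to 6191 with 1 replicate left out, the highest without replicate 3. It stayed within 1.5 times of 4411 under the other alternatives: 5085 with the block over 9 libraries, 3234 with DESeq2, 4403 with its size factors, 4490 with upper-quartile scaling, 5505 with no filter and 3808 when 10 counts were required in all libraries. The count of genes differing between the series was 4. It was 0 with no replicate block, 638 with DESeq2, 1693 with no filter and 0 when 10 counts were required in all libraries, and ranged from 0 to 757 with 1 replicate left out. It was 0 without S6K1 series replicate 1, 0 without its replicate 2 and 111 without its replicate 3. Without S6K1/S6K2 series replicates 1, 2 and 3 it was 222, 0 and 757. The cause was not tested. Over the 163 named genes and all alternatives, 1720 values kept direction and call, 199 lost the call, 3 gained one and 1 changed sign. This was of Rps6kb2, which was not called, at -0.0236 without replicate 2 and 0.0903 without replicate 3. Of the medians of the 31 lists 345 values moved by less than the spread between lines, 2 with a change of sign, and 27 by more, 4 with a change of sign. The share of genes higher by at least 16-fold with the AP-1 letters was 39.1%, and by alternatives chosen after seeing the data 39.3% without genes at or under the floor, 31.7% without prolactin-family genes and Mmp1b, and 35.3% with fitted values in place of bounds. Depth limited genes such as Il1a and Il1b, which did not pass the filter.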
